A study of Mus musculus with 9 samples.

Results

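The genes described here encode enzymes and carriers of the tricarboxylic acid (TCA) cycle, of the reactions that feed and drain it, and of the shuttles that carry reducing equivalents between cytosol and mitochondria. They were taken from a list of 38 gene symbols, and each gene was read from the probe set that the array annotation pairs with that gene alone and that had the highest mean over the 9 arrays. Of the 38 genes, 37 had such a probe set, out of 18193 genes on the array, and all 37 were above the median of their own array on at least 3 arrays and were tested. Mpc2, a subunit of the mitochondrial pyruvate carrier, was not analysed here.

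The TCA cycle takes up acetyl-CoA by joining it to oxaloacetate, oxidises the resulting citrate in the mitochondrial matrix and hands the electrons to the respiratory chain. Anaplerotic enzymes such as pyruvate carboxylase refill the cycle, and cataplerotic routes such as citrate export followed by ATP-citrate lyase withdraw carbon for lipid synthesis. Malic enzymes turn malate into pyruvate and reduce a pyridine nucleotide on the way. Parietal cells acidify the stomach with the proton pump H+/K+-ATPase, which runs on ATP, and are known for their dense packing of mitochondria.

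Total RNA of mouse stomach cells from the strain C57BL/6 had been hybridised to 9 Affymetrix genome arrays, 3 in each of 3 groups. The parietal group held gastric parietal cells, for which the labels give no treatment, reporter or means of collection. The isthmus group held corpus cells positive for Mist1 and the red reporter Tomato, taken after ablation of Lgr5+ cells. The chief group held the same kind of Mist1+ Tomato+ corpus cells without that ablation. Bhlha15 encodes Mist1, a factor that maintains secretory architecture in enzyme-secreting cells, and Lgr5 is a receptor used as a stem cell marker. The labels state that Tomato+ cells were collected by flow cytometry. They name neither the driver of the reporter nor the means of ablation, and they do not say whether samples came from separate animals, so the p-values reflect the spread among these arrays, part or all of which may be technical.

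Signals are given on the log2 scale of the deposited table, where a step of 1 is a doubling in brightness, and they compare the same probe set between arrays, not one gene with another. Median signal per array, on the linear scale, was 55.7 to 58.1 on the parietal and 60.5 to 79.9 on the isthmus arrays. On the chief arrays it was 83.3 to 104, so the array median differed by group without overlap. Summed linear signal of 11 parietal cell markers was 94300 to 109000 on the parietal arrays, 26200 to 42900 on the isthmus arrays and 36000 to 46000 on the chief arrays. Both proton pump subunits were bright everywhere: Atp4a read 14.03 to 14.32 on the parietal arrays, 12.09 to 13.21 on the isthmus arrays and 12.63 to 13.75 on the chief arrays. The chloride transporter gene Slc26a7, by contrast, read 11.68 to 12.06 on the parietal arrays and lay below the array median on all 6 Mist1+ arrays. Summed signal of 11 chief cell markers was 26300 to 36900 on the parietal, 32600 to 49500 on the isthmus and 118000 to 169000 on the chief arrays. Summed markers of other stomach cells were also lower on the parietal arrays. Enteroendocrine markers (6 genes) summed to 429 to 657 on the parietal, 18800 to 42500 on the isthmus and 40700 to 78500 on the chief arrays, and 5 of the 6 were called lower in parietal cells in both comparisons. Proliferation markers (7 genes) summed to 6920 to 8040 on the parietal, 21300 to 29000 on the isthmus and 13100 to 25200 on the chief arrays, with 6 of 7 called lower against isthmus and 5 of 7 against chief. Pit cell markers (5 genes) summed to 52200 to 59100 on the parietal, 67400 to 80500 on the isthmus and 104000 to 129000 on the chief arrays. Neck cell markers (3 genes) summed to 2770 to 7140 on the parietal, 11700 to 13600 on the isthmus and 13300 to 29400 on the chief arrays. Tuft cell markers (5 genes) summed to 188 to 476 on the parietal, 2360 to 3690 on the isthmus and 1530 to 4350 on the chief arrays. Avil was the brightest of these on the Mist1+ arrays. Only 3 of the 5 were tested and 1 was called lower in each parietal comparison, while Dclk1 averaged 6.38 on the parietal, 6.83 on the isthmus and 4.58 on the chief arrays. Bhlha15 itself read 5.03, 1.34 and 7.36 on the isthmus arrays, 2 of them below the array median, against 10.75, 10.05 and 9.2 on the chief arrays. Lgr5 read 2.93, 4.83 and 5.97 on the isthmus arrays, against 8.05, 7.54 and 9.36 on the chief arrays. Of 5 endothelial markers, Plvap alone passed the filter, at 9.34 to 10.46 on the parietal arrays and below the array median on all others. Fibroblast markers summed to 235 to 28400 over the chief arrays, with the highest sum on chief replicate 3. High Xist, a transcript of female cells, was found on 2 arrays, parietal replicate 1 at 13.13 and chief replicate 3 at 11.72. The Y-linked Eif2s3y read 2.84, 11.32 and 11.59 on the parietal arrays, and was present at 10.63 on chief replicate 3. What part these differences in cell content and sex play in the results below was not tested, and in samples of many cells a lower share of a cell type cannot be told apart from less RNA per cell.

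Differences were tested with limma in one fit over all 9 arrays, with p-values adjusted by the Benjamini-Hochberg method over 11006 genes and a call at an adjusted p under 0.05. Parietal arrays carried higher signals for most of the TCA and shuttle genes than either Mist1+ group. Against the isthmus group 25 of 37 genes were called higher and 2 lower, the cytosolic NADP enzymes Idh1 and Me1, where 12.2% of all tested genes were called higher and 15.4% lower. Their median log2 difference was 0.77, against -0.09 over all tested genes. Against the chief group 28 of 37 were called higher and 1 lower, Me1, where 10.7% of all tested genes were called higher and 13.5% lower. The median there was 1.09, against -0.1 over all tested genes. Every parietal value lay above every value of the other group for 29 of the 37 genes in both parietal comparisons, against 20.3% of all tested genes in the isthmus comparison and 18.7% in the chief comparison. Both comparisons use the same 3 parietal arrays, so they are not independent of each other. Between isthmus and chief arrays none of the 37 was called higher and 2 were called lower.

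The scaling of the arrays moves the split over all genes. Array medians were lowest on the parietal and highest on the chief arrays, so centring raised parietal values relative to both other groups. As deposited, 1339 genes were called higher and 1691 lower in parietal against isthmus, and 1905 higher and 1178 lower once each array was centred on its median. In parietal against chief the counts were 1173 higher and 1491 lower as deposited, and 3100 higher and 807 lower after centring. In isthmus against chief they were 43 higher and 139 lower as deposited, and 230 higher and 46 lower after centring. Among the 37 genes centring gave 28 called higher and 2 lower against isthmus and 32 higher and 1 lower against chief.

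**Figure D1:**
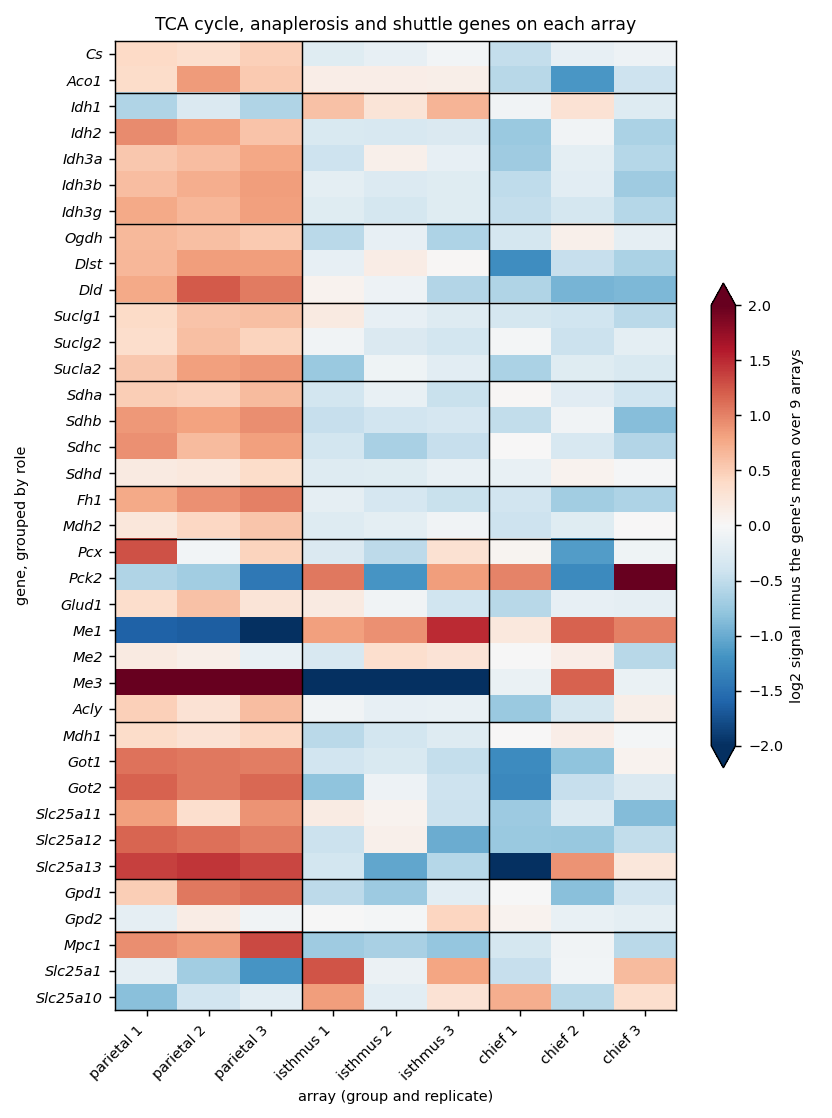
Heat map of the 37 measured genes (rows, in order of role) on the 9 arrays (columns, parietal, isthmus, chief). Colour gives the log2 signal minus that gene's mean over the 9 arrays, clipped at 2 in either direction. Most rows are red on the 3 parietal arrays, while Idh1 and Me1 are blue there, and Me3 is dark blue on the 3 isthmus arrays.

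The malic enzymes moved in opposite directions. Me3 encodes the mitochondrial NADP-dependent malic enzyme, Me1 the cytosolic NADP-dependent form and Me2 the mitochondrial NAD-dependent form. Me3 had log2 signals of 9.8, 10.52 and 9.97 on the parietal arrays, 3.96, 3.44 and 0.41 on the isthmus arrays and 6.37, 7.69 and 6.37 on the chief arrays. The 3 groups did not overlap, and all 3 isthmus values and 2 of the 3 chief values lay below the median of their array, which stands in for background here. Because of that, Me3 is given as at least 15.4-fold higher in parietal than in isthmus cells, each dim array being set to its own median (fitted log2 difference 7.49, SE 0.95, limma adjusted p = 0.000122). Against chief arrays the fitted log2 difference was 3.29 (SE 0.95, adjusted p = 0.0245), for which no fold is given because of the dim chief arrays. That second call held in 4 of the 9 fits that left out 1 array, with an adjusted p of up to 0.0949 in the others, and was lost without any 1 parietal array, chief replicate 1 or chief replicate 3.

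Me1 showed the reverse pattern, with 9.3, 9.27 and 8.57 on the parietal arrays, 11.74, 11.83 and 12.42 on the isthmus arrays and 11.13, 12.1 and 11.93 on the chief arrays. All 3 parietal values lay below all 6 others. The gene was 7.73-fold lower in parietal than in isthmus cells (log2 difference -2.95, SE 0.32, adjusted p = 4.65e-05) and 6.38-fold lower than in chief cells (-2.67, SE 0.32, adjusted p = 9.7e-05). A second Me1 probe set gave -3.27 and -2.9. Me2 read 11.42, 11.36 and 11.09 on the parietal arrays, 10.93, 11.58 and 11.51 on the isthmus arrays and 11.23, 11.38 and 10.69 on the chief arrays. Its groups overlapped, and the 95% intervals of its log2 difference ran from -0.61 to 0.51 against isthmus and from -0.37 to 0.75 against chief.

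**Figure D2:**
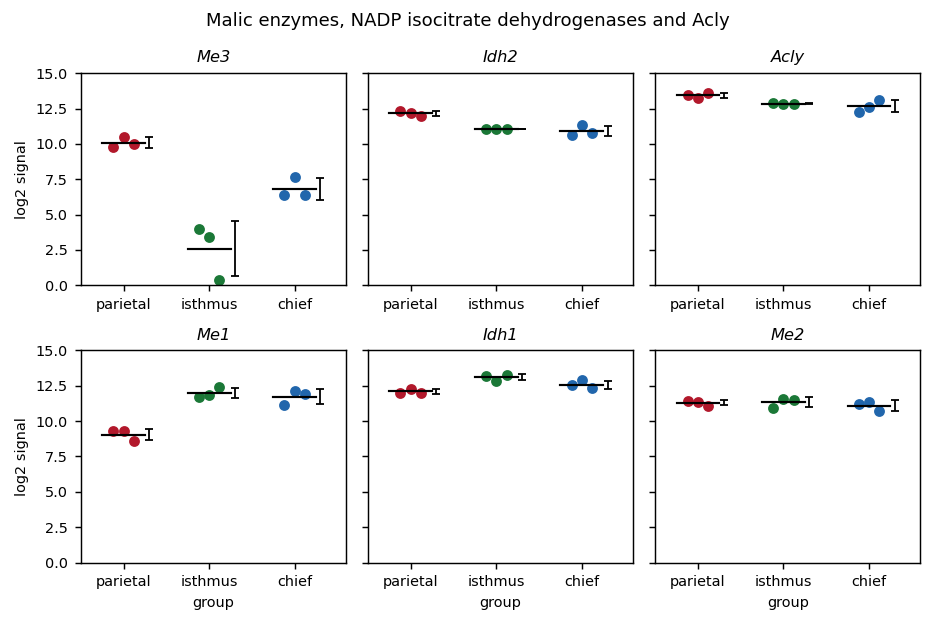
Log2 signal (vertical axis, 0 to 15) of Me3, Idh2, Acly, Me1, Idh1 and Me2 on the parietal, isthmus and chief arrays. Points are arrays, the horizontal line is the group mean and the bar beside it is 1 SD (n = 3). Me3 lies at 9.8 to 10.52 on the parietal arrays and Me1 at 8.57 to 9.3 there, above and below their values in the other groups.

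The promoters of this pair are printed because the genes moved in opposite directions, and those of Sdha and Sdhd because they carry motifs of factors known to act on mitochondrial genes. Sequences are RefSeq windows from the assembly GRCm38.p6, running from 250 bases before to 50 after the annotated start, read 5′ to 3′ on the gene's strand, with motif matches in capitals. Me3 lies at chr7:89632568-89632867 on the plus strand, Me1 at chr9:86695865-86696164, Sdha at chr13:74350191-74350490 and Sdhd at chr9:50603800-50604099, the last 3 on the minus strand.
Me3: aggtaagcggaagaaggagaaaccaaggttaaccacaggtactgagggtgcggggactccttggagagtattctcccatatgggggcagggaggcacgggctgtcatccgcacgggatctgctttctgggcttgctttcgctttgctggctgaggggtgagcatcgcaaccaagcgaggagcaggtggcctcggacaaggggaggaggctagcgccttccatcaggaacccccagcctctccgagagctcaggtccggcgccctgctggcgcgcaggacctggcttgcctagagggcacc
Me1: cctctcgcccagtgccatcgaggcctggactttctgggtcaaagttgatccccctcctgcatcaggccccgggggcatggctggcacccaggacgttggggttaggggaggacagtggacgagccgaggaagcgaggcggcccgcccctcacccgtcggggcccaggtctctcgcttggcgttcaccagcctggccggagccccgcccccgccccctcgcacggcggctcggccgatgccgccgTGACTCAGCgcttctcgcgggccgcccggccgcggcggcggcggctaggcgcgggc
Sdha: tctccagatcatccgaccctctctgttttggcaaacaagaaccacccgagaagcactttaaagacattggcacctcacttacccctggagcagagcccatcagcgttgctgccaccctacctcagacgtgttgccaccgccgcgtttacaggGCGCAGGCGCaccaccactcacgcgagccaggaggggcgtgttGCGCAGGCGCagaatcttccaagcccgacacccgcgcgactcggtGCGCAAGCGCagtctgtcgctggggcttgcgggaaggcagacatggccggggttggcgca
Sdhd: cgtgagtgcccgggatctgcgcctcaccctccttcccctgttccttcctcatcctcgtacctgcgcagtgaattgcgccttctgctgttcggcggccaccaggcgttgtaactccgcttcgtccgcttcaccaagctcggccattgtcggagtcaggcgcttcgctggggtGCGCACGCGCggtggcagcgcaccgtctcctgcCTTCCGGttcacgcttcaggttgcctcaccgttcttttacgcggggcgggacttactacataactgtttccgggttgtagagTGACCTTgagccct
In Me1 the capitals mark TGACTCAGC at bases 245 to 253, a match to TGACNNNGC, the core of the antioxidant response element. In Sdha they mark 3 matches to the NRF1 motif (GCGCA, any base, GCGC) at bases 153 to 162, 196 to 205 and 241 to 250. In Sdhd they mark 1 NRF1 match at bases 172 to 181, the reverse complement of the GABP motif CCGGAAG at bases 205 to 211, and that of AAGGTCA, the extended half-site of the ERR nuclear receptors, at bases 287 to 293. The Me3 window held none of the 4 motifs. Of the 38 genes 34 had a window, and both strands were searched. AAGGTCA was found in 3 of the 34 (Ogdh, Sdhd and Got1) and in 5.38% of all 27025 genes with a window. The NRF1 motif was found in 4 (Dld, Sucla2, Sdha and Sdhd) against 5.19% of all genes, CCGGAAG in 7 against 9.93%, and TGACNNNGC in 6, Me1 among them, against 14%. These matches describe letters in the windows and are not binding sites.

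Citrate is formed by citrate synthase, encoded by Cs, and rearranged to isocitrate by aconitase activity, which the cytosolic protein encoded by Aco1 has. Cs read 13.77, 13.7 and 13.84 on the parietal arrays, 13.12, 13.2 and 13.32 on the isthmus arrays and 12.9, 13.21 and 13.27 on the chief arrays. The parietal values lay above all others, by a modest 1.47-fold against isthmus (adjusted p = 0.00357) and 1.56-fold against chief (adjusted p = 0.00168). Aco1 read 11.07, 11.56 and 11.22 on the parietal arrays, 10.84, 10.84 and 10.82 on the isthmus arrays and 10.15, 9.53 and 10.28 on the chief arrays. It was called higher against chief alone, at 2.46-fold (log2 difference 1.3, SE 0.27, adjusted p = 0.00444), while the difference from isthmus, 0.45 with a 95% interval of -0.14 to 1.04, was not called.

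Of the 5 isocitrate dehydrogenase genes, the 4 mitochondrial ones were higher in parietal cells in both comparisons and the cytosolic one was not. The NAD-dependent enzyme of the cycle is built from the alpha, beta and gamma subunits encoded by Idh3a, Idh3b and Idh3g. They were 1.74-, 1.95- and 2.04-fold higher in parietal than in isthmus cells, and 2.19-, 2.3- and 2.32-fold higher than in chief cells. Idh2, the mitochondrial NADP-dependent enzyme, read 12.33, 12.21 and 11.96 on the parietal arrays, 11.08, 11.07 and 11.09 on the isthmus arrays and 10.64, 11.32 and 10.75 on the chief arrays. It was called higher at 2.12-fold and 2.4-fold (adjusted p = 0.00335 and 0.0015), but a second, dimmer Idh2 probe set averaged 9.48 on the parietal arrays, 9.41 on the isthmus arrays and 10.49 on the chief arrays, with the opposite sign against chief. Idh1, the cytosolic NADP-dependent enzyme, read 12, 12.3 and 11.99 on the parietal arrays, 13.18, 12.86 and 13.28 on the isthmus arrays and 12.52, 12.89 and 12.34 on the chief arrays. All parietal values were the lowest, with a 2.01-fold deficit against isthmus (log2 difference -1.01, SE 0.18, adjusted p = 0.00103). Against chief the difference was -0.49 (95% interval -0.87 to -0.11) and was not called (adjusted p = 0.061). The second Idh1 probe set gave -1 and -0.48.

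Oxoglutarate dehydrogenase is a complex of a decarboxylase (Ogdh), a succinyltransferase (Dlst) and a lipoamide dehydrogenase (Dld) that it shares with the pyruvate dehydrogenase complex. All 3 genes were called higher in parietal cells in both comparisons, beside 12.2% of all tested genes against isthmus and 10.7% against chief. Dld read 11.92, 12.38 and 12.19 on the parietal arrays, 11.23, 11.06 and 10.57 on the isthmus arrays and 10.55, 10.23 and 10.26 on the chief arrays, 2.31-fold and 3.52-fold apart in the means (adjusted p = 0.00285 and 0.000217). Dlst read 11.9, 12.07 and 12.07 on the parietal arrays, 11.08, 11.39 and 11.26 on the isthmus arrays and 9.99, 10.78 and 10.6 on the chief arrays. It stood 1.71-fold above isthmus (adjusted p = 0.0307) and 2.94-fold above chief (adjusted p = 0.000592). Ogdh was 2.04-fold above isthmus (adjusted p = 0.00328) and 1.66-fold above chief (adjusted p = 0.0246). The Dlst call against isthmus held in 4 of the 9 fits that left out 1 array (adjusted p up to 0.0975), ending without any 1 parietal array or isthmus replicate 1 or 3, and the Ogdh call against chief likewise held in 4 (up to 0.0798), ending without any 1 parietal array or chief replicate 1 or 3.

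Succinyl-CoA ligase pairs the alpha subunit Suclg1 with a GTP-forming (Suclg2) or an ATP-forming (Sucla2) beta subunit. Sucla2 was the most raised of the 3 in both comparisons, 2.12-fold above isthmus and 2.2-fold above chief (adjusted p = 0.00238 and 0.00204). Suclg1 was 1.52-fold and 1.93-fold higher and Suclg2 1.63-fold and 1.61-fold higher, both called in both comparisons. The Suclg1 call against isthmus held in 5 of 9 fits without 1 array (adjusted p up to 0.0908), ending without parietal replicate 2 or 3 or isthmus replicate 2 or 3. The Suclg2 call against chief ended without parietal replicate 2 (0.0554).

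Succinate dehydrogenase, respiratory complex II, consists of the flavoprotein Sdha, the iron-sulfur protein Sdhb and the membrane anchors Sdhc and Sdhd. All 4 genes were called higher in parietal cells in both comparisons, beside 12.2% and 10.7% of all tested genes, yet by different amounts. Sdhb read 13.22, 13.16 and 13.28 on the parietal arrays, 11.9, 11.97 and 12.02 on the isthmus arrays and 11.87, 12.29 and 11.5 on the chief arrays, a 2.39-fold and a 2.52-fold difference (adjusted p = 0.000327 and 0.000263). Sdhc read 13.3, 13.03 and 13.21 on the parietal arrays, 12.03, 11.74 and 11.93 on the isthmus arrays and 12.4, 12.07 and 11.8 on the chief arrays, 2.43-fold and 2.13-fold apart (adjusted p = 0.000188 and 0.000698). Sdha was 1.8-fold and 1.66-fold higher. Sdhd differed least: it read 13.82, 13.84 and 14 on the parietal arrays, 13.38, 13.39 and 13.49 on the isthmus arrays and 13.49, 13.71 and 13.61 on the chief arrays. Its parietal values lay above all others, but the difference was 1.38-fold against isthmus (adjusted p = 0.00318) and 1.22-fold against chief (adjusted p = 0.0483). The second of these calls held in only 2 of the 9 fits without 1 array, those without chief replicate 2 or isthmus replicate 3 (adjusted p up to 0.182 in the others). Another Sdhd probe set gave larger log2 differences, 0.54 against isthmus and 0.67 against chief, where the chosen one gave 0.47 and 0.28. Parietal values of that other probe set, 13.04 to 13.3, also lay above all others.

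Fumarase, which hydrates fumarate to malate, is encoded by Fh1. Its log2 signals were 12.82, 12.98 and 13.07 on the parietal arrays, 11.89, 11.73 and 11.62 on the isthmus arrays and 11.69, 11.37 and 11.46 on the chief arrays. The parietal values stood clear of both groups, 2.31-fold above isthmus (log2 difference 1.21, SE 0.17, adjusted p = 0.000195) and 2.73-fold above chief (1.45, SE 0.17, adjusted p = 6.18e-05). Mdh2, the mitochondrial malate dehydrogenase that closes the cycle, was 1.49-fold and 1.53-fold higher (adjusted p = 0.00478 and 0.00364).

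**Figure D3:**
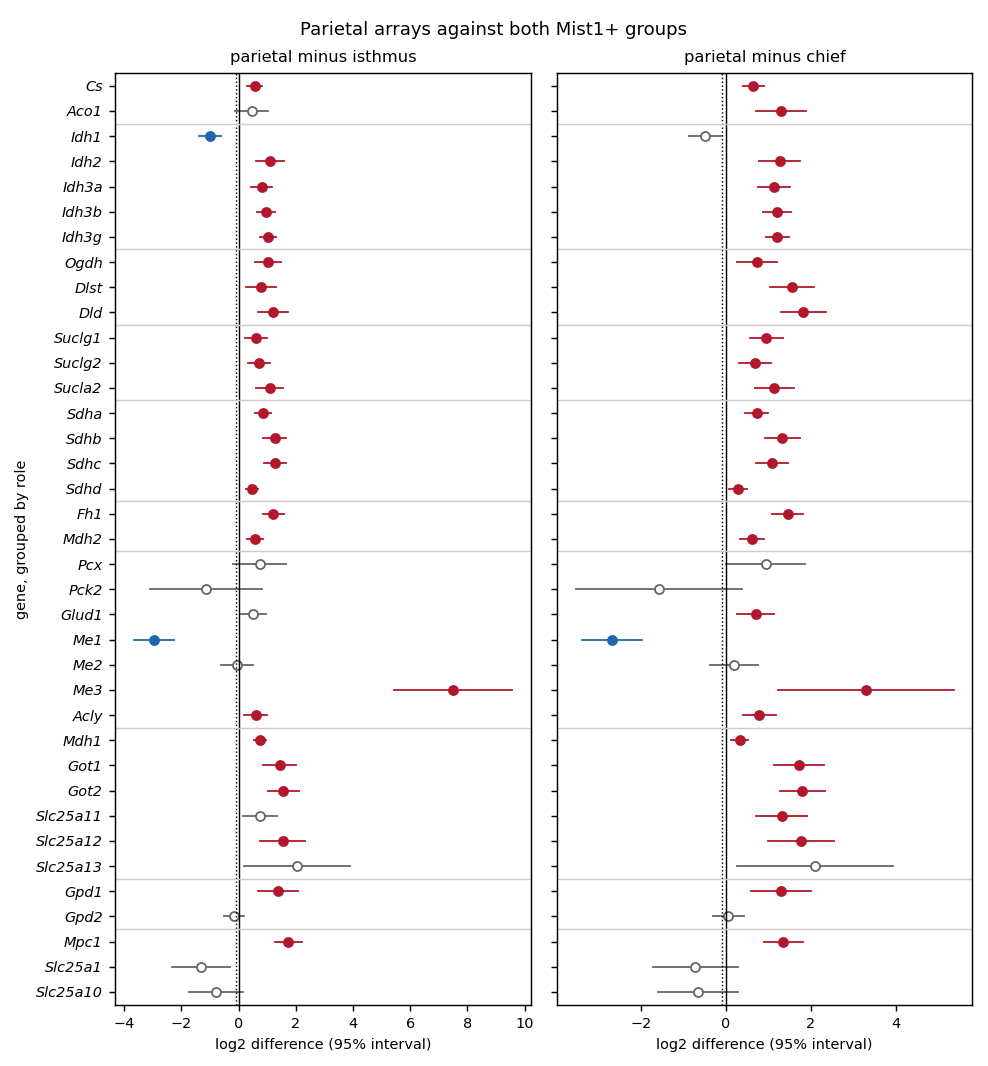
Log2 differences of the 37 genes for parietal minus isthmus (left) and parietal minus chief (right), with 95% intervals from limma. Red points were called higher, blue points lower, and open points were not called. The dotted line is the median over all tested genes (-0.09 and -0.1), and the scales of both panels differ because Me3 reached 7.49 on the left and 3.29 on the right.

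Genes that feed or drain the cycle differed in both directions. Of the 7 such genes 2 were called higher and 1 lower against isthmus, and 3 higher and 1 lower against chief, the malic enzymes described above included, beside 12.2% higher and 15.4% lower over all tested genes against isthmus and 10.7% and 13.5% against chief. ATP-citrate lyase, encoded by Acly, splits exported citrate into acetyl-CoA and oxaloacetate. Acly read 13.46, 13.27 and 13.6 on the parietal arrays, 12.91, 12.82 and 12.84 on the isthmus arrays and 12.24, 12.64 and 13.1 on the chief arrays, 1.5-fold above isthmus (adjusted p = 0.0293) and 1.72-fold above chief (adjusted p = 0.00764). Its parietal values lay above all others, but its call against isthmus held in 4 of 9 fits without 1 array (adjusted p up to 0.109), ending without parietal replicate 1 or 3 or any 1 isthmus array, and other Acly probe sets differed in sign. Glud1, glutamate dehydrogenase, was 1.62-fold higher than in chief cells (adjusted p = 0.0265) and 1.41-fold higher than in isthmus cells without a call (adjusted p = 0.094). Its call against chief ended without parietal replicate 1 or 2 or chief replicate 1 (adjusted p up to 0.104).

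Pyruvate carboxylase, encoded by Pcx, makes oxaloacetate from pyruvate. Pcx read 11.35, 10.02 and 10.51 on the parietal arrays, 9.78, 9.54 and 10.37 on the isthmus arrays and 10.12, 8.96 and 9.99 on the chief arrays. The groups overlapped and the gene was not called (log2 difference 0.73 against isthmus, 95% interval -0.2 to 1.66, and 0.94 against chief, 0.01 to 1.86). Pck2, the mitochondrial enzyme that draws oxaloacetate off as phosphoenolpyruvate, was dim and variable, at 6.75, 6.65 and 5.93 on the parietal arrays, 8.4, 6.18 and 8.19 on the isthmus arrays and 8.34, 6.08 and 9.65 on the chief arrays. No difference was detectable for it, with 95% intervals of -3.1 to 0.81 and -3.53 to 0.37.

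The malate-aspartate shuttle moves NADH equivalents into mitochondria with a malate dehydrogenase and an aspartate aminotransferase on each side of the inner membrane, a malate-oxoglutarate carrier (Slc25a11) and an aspartate-glutamate carrier (Slc25a12 or Slc25a13). In both comparisons every parietal value of its 6 genes lay above every value of the other group, with 4 genes called against isthmus and 5 against chief. Of all tested genes 20.3% and 18.7% lay wholly above in the same way, and 12.2% and 10.7% were called higher. The median difference of the 6 was 1.49 against isthmus and 1.74 against chief on the log2 scale. Got1, the cytosolic aminotransferase, read 12.93, 12.9 and 12.87 on the parietal arrays, 11.47, 11.54 and 11.37 on the isthmus arrays and 10.59, 11.04 and 11.92 on the chief arrays. It was 2.71-fold above isthmus (SE of the log2 difference 0.27, adjusted p = 0.00172) and 3.29-fold above chief (SE 0.27, adjusted p = 0.000642). Its mitochondrial partner Got2 read 13.3, 13.18 and 13.27 on the parietal arrays, 11.33, 12.02 and 11.71 on the isthmus arrays and 10.84, 11.66 and 11.84 on the chief arrays, 2.96-fold and 3.49-fold apart (adjusted p = 0.000585 and 0.000265). The parietal arrays differed from each other by far less than the chief arrays did for both genes.

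Mdh1, the cytosolic malate dehydrogenase, read 14.36, 14.29 and 14.4 on the parietal arrays, 13.45, 13.63 and 13.74 on the isthmus arrays and 14, 14.12 and 13.95 on the chief arrays. The 3 groups did not overlap, with parietal 1.67-fold above isthmus (adjusted p = 9.59e-05) and 1.25-fold above chief (adjusted p = 0.0208). The call against chief ended without parietal replicate 1 or 3 or chief replicate 3 (adjusted p up to 0.0776). Slc25a12 read 10.78, 10.73 and 10.65 on the parietal arrays, 9.19, 9.73 and 8.63 on the isthmus arrays and 8.88, 8.87 and 9.13 on the chief arrays, 2.9-fold and 3.39-fold apart (adjusted p = 0.00707 and 0.00373). Slc25a11 read 11.65, 11.17 and 11.73 on the parietal arrays, 11, 10.91 and 10.41 on the isthmus arrays and 10.1, 10.56 and 9.97 on the chief arrays. It was called against chief at 2.47-fold (adjusted p = 0.00469) and missed the threshold against isthmus (1.67-fold, adjusted p = 0.0658). Slc25a13 read 9.58, 9.64 and 9.56 on the parietal arrays, 7.85, 7.18 and 7.64 on the isthmus arrays and 4.96, 9.11 and 8.44 on the chief arrays. Its difference was not called in either comparison (log2 2.04 and 2.09, SE 0.85, adjusted p = 0.0955 and 0.0944), with the chief arrays spread over an SD of 2.2. The value against chief rests on chief replicate 1, which lay below its array median: without that array it was 0.82 (adjusted p = 0.255), and the difference from isthmus was then called (adjusted p = 0.00423). Without chief replicate 2 the difference from chief was 2.89 (adjusted p = 0.033).

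The glycerol phosphate shuttle joins the cytosolic dehydrogenase Gpd1 to the mitochondrial Gpd2, and the pair split. Gpd1 read 10.65, 11.2 and 11.27 on the parietal arrays, 9.63, 9.43 and 9.94 on the isthmus arrays and 10.15, 9.32 and 9.77 on the chief arrays. It was 2.59-fold above isthmus and 2.45-fold above chief (SE of the log2 differences 0.33, adjusted p = 0.00797 and 0.0129), the second call ending without parietal replicate 2 or 3 (adjusted p up to 0.0622). Gpd2 read 12.27, 12.6 and 12.38 on the parietal arrays, 12.44, 12.41 and 12.89 on the isthmus arrays and 12.53, 12.3 and 12.26 on the chief arrays. Its groups overlapped, and the 95% intervals of -0.53 to 0.2 and -0.31 to 0.42 bound the log2 difference of this probe set alone. Other Gpd2 probe sets gave -0.57, -0.09 and, where dim, -1.7 against isthmus, and 0.08, 0.21 and -0.51 against chief. In the first of them all parietal values (11.52, 11.5 and 11.67) lay below all isthmus values (12.06, 12 and 12.35).

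Mpc1 encodes the other subunit of the carrier that brings pyruvate into the matrix. Its signals were 12.35, 12.26 and 12.73 on the parietal arrays, 10.71, 10.76 and 10.64 on the isthmus arrays and 11.06, 11.35 and 10.87 on the chief arrays. Parietal cells stood 3.35-fold above isthmus (log2 difference 1.74, SE 0.21, adjusted p = 9.46e-05) and 2.56-fold above chief (1.35, SE 0.21, adjusted p = 0.000662). The citrate carrier gene Slc25a1 ran the other way, just short of a call against isthmus, at 9.29, 8.77 and 8.29 on the parietal arrays, 10.72, 9.34 and 10.25 on the isthmus arrays and 9, 9.4 and 10.1 on the chief arrays. Its parietal values were below all isthmus values (log2 difference -1.32, SE 0.46, adjusted p = 0.0506), a difference that 11 of the 21 alternatives called, and overlapped the chief values (-0.72, adjusted p = 0.295). The dicarboxylate carrier gene Slc25a10 gave -0.78 and -0.65, not called (adjusted p = 0.211 and 0.313).

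Between isthmus and chief arrays, both from Mist1+ Tomato+ cells, these genes showed little difference. Limma called 0 of 37 higher and 2 lower, Me3 and Mdh1, where 0.391% of all tested genes were called higher and 1.26% lower, 1.65% in all. At an unadjusted p under 0.05 the counts were 4 higher and 2 lower, where 17.4% of all tested genes passed in either direction, so this share is near the background. Me3 was lower in isthmus cells (fitted log2 difference -4.21, SE 0.95, adjusted p = 0.0455), from the values given above. No fold is given for it, because 2 of the chief arrays also lay below their array median. Mdh1 was 1.33-fold lower (log2 difference -0.42, SE 0.092, adjusted p = 0.0428). The Me3 call was lost in each of the 9 fits that left out 1 array (adjusted p 0.0642 to 0.125), and the Mdh1 call in 8 of them, all but that without isthmus replicate 3 (adjusted p up to 0.156). The median difference of the 37 genes was 0.2, against 0.03 over all tested genes. Isthmus values lay wholly above chief values for 4 genes (Aco1, Dlst, Dld and Suclg1) and wholly below for 3 (Me3, Mdh1 and Mpc1), where 10.6% and 10.5% of all tested genes did so, and a share near that background is not a result about these genes. The intervals still allow sizeable differences for single genes, such as 0.25 to 1.44 for Aco1 and -0.43 to 0.98 for Me1.

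**Figure D4:**
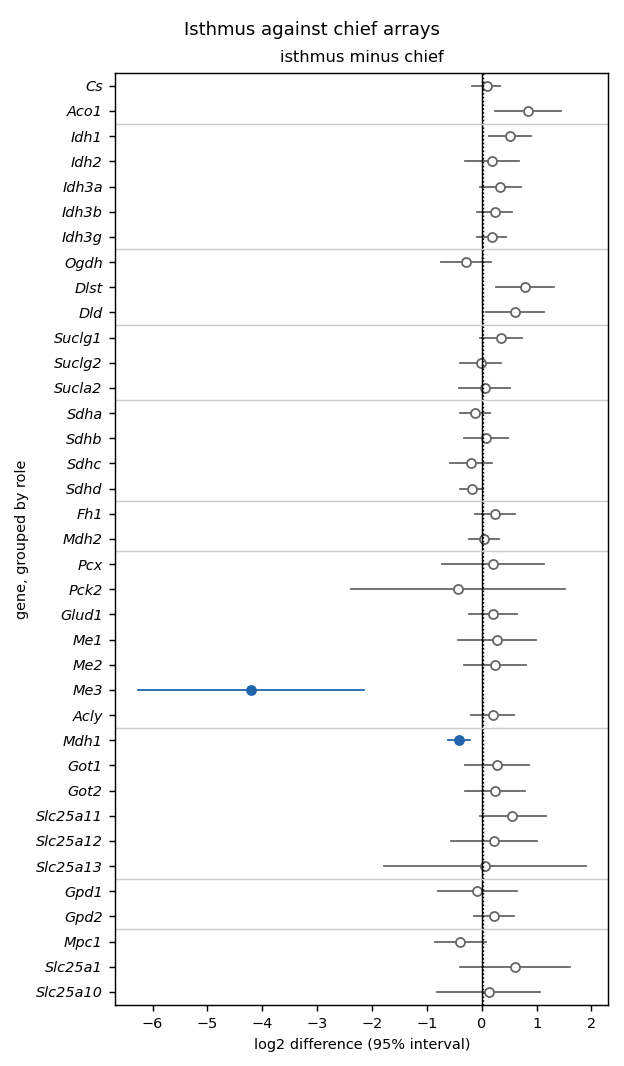
Log2 differences of the 37 genes for isthmus minus chief, with 95% intervals from limma. Blue points, Me3 at -4.21 and Mdh1 at -0.42, were called lower, and the 35 open points were not called.

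Most of the differences appeared in other probe sets of the same genes. The 37 genes had 53 further probe sets, 38 of them above the array median on at least 3 arrays. Among those belonging to called genes, 26 of 29 had the same sign as the chosen probe set against isthmus and 27 of 30 against chief. The exceptions belonged to Dlst, Acly and Mdh1 in the first comparison and to Idh2 and Acly in the second.

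Genes of neighbouring pathways give the setting of these differences. Of 24 measured oxidative phosphorylation genes, which encode respiratory chain and ATP synthase subunits and electron carriers, all 24 were called higher in parietal than in isthmus cells (median log2 difference 0.8) and 21 of 24 higher than in chief cells (median 0.69). When both high-Xist arrays were left out, 24 were called higher against isthmus and 15 against chief. Uqcrfs1, the Rieske protein of complex III, was 2.74-fold above isthmus and 3.72-fold above chief, and Ndufs1 of complex I was 2.5-fold and 3.54-fold above. Of 21 genes that mark mitochondrial content in general, such as channels, import and cristae proteins, 6 were called higher against isthmus (median 0.36) and 9 against chief (median 0.52), none lower. The counts of mitochondrial content genes depended on the scaling and on which arrays were kept. Against isthmus they were 3 higher and 1 lower with quantile normalization and 12 higher with centring, and against chief 6 higher with quantile normalization, 19 with centring, and 2 when both high-Xist arrays were left out. The cristae organiser gene Immt was among them, at 2.47-fold and 2.13-fold. Medians of all tested genes were -0.09 and -0.1, and 12.2% and 10.7% of them were called higher.

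Other enzymes near the cycle were mixed. Of 10 further cycle enzymes and assembly factors 5 were called higher against isthmus and 2 against chief, none lower, with 3 against isthmus without both arrays with high Xist and 7 against chief after centring. They included Nnt, the proton-driven transhydrogenase that makes NADPH in mitochondria, at 3.27-fold above isthmus and 2.69-fold above chief (adjusted p = 0.000667 and 0.00262). Adhfe1, a hydroxyacid-oxoacid transhydrogenase, was 20.9-fold and 20.8-fold higher, with 1 isthmus and 1 chief array below the array median. Of 12 other anaplerotic enzymes 7 were called higher and 2 lower against isthmus, and 6 higher and 2 lower against chief, of which 2 higher and 2 lower were called without both arrays with high Xist. Of all tested genes 12.2% and 10.7% were called higher. The share of all tested genes called lower was 15.4% and 13.5%, near that of this list. Propionyl-CoA carboxylase, which feeds succinyl-CoA, was among the higher ones, with Pcca 8.88-fold and 3.89-fold and Pccb 4.95-fold and 3.58-fold above isthmus and chief. Gpt2, the mitochondrial alanine aminotransferase, was 2.89-fold and 3.27-fold higher. The lower ones were Asns, asparagine synthetase (1.95-fold and 2.96-fold), and Aldh18a1, which makes proline precursors from glutamate (3.8-fold and 5.3-fold).

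Among 18 other mitochondrial carriers 7 were called higher and 3 lower against isthmus, and 5 higher and 1 lower against chief, or 8 higher and 1 lower after centring. Calls over all tested genes were 12.2% higher and 15.4% lower against isthmus and 10.7% higher and 13.5% lower against chief, so the lower calls of this list were near or below that background. Slc25a4, an adenine nucleotide translocator, was 3.31-fold and 3.5-fold higher. Slc25a5, another such translocator, differed less, averaging 14.27 on the parietal, 13.66 on the isthmus and 13.81 on the chief arrays (1.53-fold above isthmus). The calcium-dependent ATP-magnesium/phosphate carriers differed among themselves. Slc25a24 read 7.3, 7.03 and 7.07 on the parietal arrays, 10.89, 10.9 and 11.62 on the isthmus arrays and 10.17, 10.56 and 10.86 on the chief arrays, 16-fold and 10.5-fold lower in parietal cells. Slc25a23 and Slc25a25 were the only carriers of the 18 called between isthmus and chief: Slc25a23 was 8.61-fold lower in isthmus cells (adjusted p = 0.026) and Slc25a25 6.28-fold higher (adjusted p = 0.0375). Without both arrays with high Xist no carrier was called higher there and 1 was called lower.

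Genes of lipid synthesis, a pathway fed by exported citrate, leaned the other way from the cycle. The list holds later steps such as Scd2 and the regulators Srebf1 and Srebf2, and not only enzymes near citrate. Of 9 measured, 5 were called lower and 2 higher in parietal than in isthmus cells (median log2 difference -1.25). Against chief cells 5 were called lower and 1 higher (median -1.47), or 3 lower and 2 higher after centring. Of all tested genes 15.4% were called lower and 12.2% higher against isthmus, and 13.5% and 10.7% against chief. Fasn, fatty acid synthase, read 9.67, 9.31 and 9.76 on the parietal arrays, 10.75, 11.05 and 10.68 on the isthmus arrays and 10.73, 11.35 and 11.14 on the chief arrays, 2.37-fold and 2.82-fold lower (adjusted p = 0.00555 and 0.00212). Scd2, a fatty acid desaturase, was 4.43-fold and 3.91-fold lower. Acacb, the acetyl-CoA carboxylase associated with mitochondria, was the one called higher in both comparisons, at 4.04-fold and 6.85-fold (adjusted p = 0.00427 and 0.000642). Acly, which supplies the acetyl-CoA for this pathway and is a member of the list of 38, was higher, as given above. Between isthmus and chief arrays, where limma called 1.65% of all tested genes and 17.4% had an unadjusted p under 0.05, it called 0 of the 24 oxidative phosphorylation genes (4 higher and 6 lower at an unadjusted p under 0.05), 0 of the 9 lipid synthesis genes (1 and 1) and 0 of the 21 mitochondrial content genes (3 and 2).

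**Figure D5:**
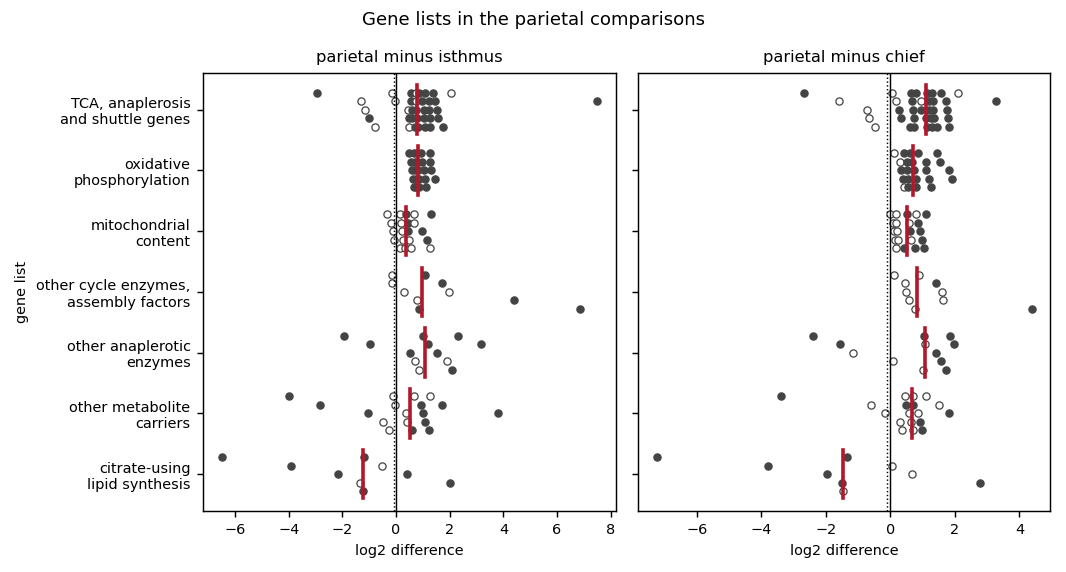
Log2 differences of each tested gene in 7 gene lists for parietal minus isthmus (left) and parietal minus chief (right). Filled points were called, open points were not, the red bar is the list median and the dotted line the median over all tested genes. The list of TCA, anaplerosis and shuttle genes has medians of 0.77 and 1.09, oxidative phosphorylation 0.8 and 0.69, and lipid synthesis -1.25 and -1.47.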

How the data were processed

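Total RNA labelled with biotin was measured on 1 Affymetrix array per sample. The authors deposited 1 log2 signal per probe set and array, made with MAS5 per the submitters' processing notes. The base of the logarithm was inferred: base 2 puts the trimmed mean signal (2% off either end) at 496 to 497 on every array. Values are floored at 0, and 1.99% to 3.91% of an array's values lay there, none from the 37 genes. The MAS5 version, the scan times and the detection calls were not used here. Groups and replicate numbers came from the sample titles.

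Of 45037 probe sets 34945 named 1 gene in the platform annotation, 932 several and 9160 none; 34741 were matched by identifier in a RefSeq table of GRCm38.p6, which changed 0 symbols. The brightest probe set by mean stood for each of 18193 genes, and 11006 genes exceeded their array's median on 3 or more of the 9 arrays and were tested. Mpc2 was not analysed here, for want of a probe set that names it alone in the table used.

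The deposited log2 values were fitted unaltered with limma 3.58.1 under R 4.3.3 (linear model of 3 group means, moderated variances with an intensity trend) and 6 residual degrees of freedom. Tests were two-sided and Benjamini-Hochberg adjusted over all tested genes in each comparison. The number of arrays limits the precision. The script was tested on simulated data. Where all 3 arrays of the dimmer group lay below their array median, a fold is a bound, "at least", with each dim array set to the higher of its value and that median.

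The 38 genes and all other lists were chosen with earlier results of these data known, so no list was tested as a set. Values on every array are given for up to 10 called genes per comparison and direction, by size, and for exceptions within a role; other lists give up to 4 called genes per comparison. Some genes beyond that rule (Cs, Aco1, Idh2, Acly, Mdh1, Slc25a13, Asns, Fasn, Plvap and Xist among them) were named or given per array after their values were seen. Alternatives were log2 of signal plus 16 or 64, quantile normalization, centring, other filters, a fit of 2 groups alone, no trend, means over probe sets, a replicate block, and leaving out arrays; the mean over brighter probe sets was chosen after seeing the data.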

Additional observations from a re-analysis of the deposited data

How the results depend on the processing

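The direction of the main counts between parietal and Mist1+ arrays held under all 21 alternatives, and 11 of 27 calls against isthmus (among them Idh1, Me1, Me3, Idh3b, Idh3g, Sdhb, Sdhc, Fh1, Got1 and Mpc1) and 11 of 29 against chief were kept in every one of them that tested the gene. Me3, Sdhb, Fh1, Got1 and Mpc1 have only 1 probe set, so both means over probe sets left their values unchanged and could not test their calls. Over all alternatives 17 to 28 genes were called higher against isthmus and 17 to 32 against chief. Without the intensity trend the counts were 17 and 19, and the calls of Cs, Suclg2, Sdhd and Mdh2, among others, ended in both comparisons. Centring each array on its median raised the median difference of the 37 genes to 1.09 against isthmus, 1.78 against chief and 0.57 for isthmus minus chief, as it moved the median of all tested genes to 0.22, 0.59 and 0.41. The higher share of all calls then went to 61.8%, 79.3% and 83.3%, against 44.2%, 44% and 23.6% as deposited. Relative to those shifts the 37 genes remained above the median of all genes. Averaging all probe sets of a gene, dim ones included, gave a median of 0.63 against isthmus and 17 genes called higher against chief, and turned Dld to -0.24 and -0.05 and Sdha to -0.29 against isthmus; the mean of the brighter probe sets alone did not turn them. The count called lower against chief was 2 under quantile normalization and under both means over probe sets. In isthmus against chief the 2 genes called lower became 1 with log2(signal + 64), with the stricter filter, which left Me3 out of the test, and with both probe set means. They became 0 with quantile normalization (where Mdh1 moved to 0), with centring (where 2 were called higher and Mdh1 moved to -0.04), without a filter, with those 2 groups alone, without the intensity trend and without both arrays with high Xist. Without those 2 arrays 24 genes were called higher and 3 lower against isthmus, and 22 and 1 against chief. Leaving out 1 array at a time gave 22 to 26 higher, 2 to 3 lower and medians of 0.74 to 0.88 against isthmus, 22 to 29 higher, 1 to 2 lower and 1.02 to 1.14 against chief, and 0 to 0 higher, 0 to 1 lower and 0.07 to 0.21 for isthmus minus chief. Same-numbered samples correlated at only -0.04 to 0.07 in their deviations, values too low to show a pairing by number and unable to exclude it. For each isthmus sample the chief sample of the same number was the best match (0.04, 0.04 and 0.07). With a replicate block the counts stayed at 25 and 2, and 28 and 1, and were 0 and 0 for isthmus minus chief. Except where a change follows from fewer arrays or fewer genes tested, the cause was not tested. Signal near background limits Me3, Pck2 and Slc25a13.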
